A study of Prunus persica with 24 samples.

Results

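Prupe.4G187100 and Prupe.4G186800 are the 2 NAC transcription factor genes of the peach (Prunus persica) maturity date locus, and their transcripts were followed in flesh of harvested fruit kept at 25 or 35 °C. They were found by identifier and are 2 of the 26873 gene identifiers that the deposited tables list. Fruit had first been held at 5 °C for 2 days and was then divided at random between the temperatures, 25 °C being the common and 35 °C the high one. Flesh was sampled on days 1, 2, 3, 5, 6 and 7, which makes 12 groups of temperature and day with 2 libraries each. Each group has 1 deposited value per gene, in FPKM (fragments per kilobase of transcript, scaled to all mapped fragments of the column), so no spread between libraries can be given. The labels give neither the cultivar nor how many fruit went into a library. The tissue label, flesh, could not be set against marker genes, because the tables pair no identifier with a product name.

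NAC proteins are plant transcription factors that bind DNA through a conserved domain at their amino end. In tomato, a NAC factor encoded at the non-ripening locus is needed for normal fruit ripening. In peach, the maturity date locus is a major known source of differences between cultivars in the date at which fruit ripens, and its NAC genes are the candidates for that effect. Peach is a climacteric fruit, whose softening, colour and aroma change with a burst of ethylene after harvest. Which genes the products of these 2 genes act on cannot be read from the tables. No sequence is shown, since the sources used here hold none for these identifiers.

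Each member had 1 row in both tables, and 0 other identifiers carried the same values, so neither level rests on rows that were added together. Values below are FPKM rescaled so that the median gene is alike in all 12 columns, and differences are on the scale of log2(FPKM + 1). Column sums ran from 651850 to 882184 FPKM, the read depth is unknown, and 15420 identifiers with at least 1 FPKM in at least 2 columns were tested. In bulk flesh, fewer cells that hold a transcript and less of it per cell cannot be told apart.

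Prupe.4G187100 was abundant throughout and stood higher at 35 °C than at 25 °C on every day. At 25 °C it started at 248 FPKM on day 1, was then 234 (day 2), 201 (day 3) and 195 FPKM (day 5), and ended at 268 (day 6) and 351.1 FPKM (day 7). At 35 °C it started at 384 FPKM, was 354.8 (day 2), 484 (day 3) and 571 FPKM (day 5), and ended at 366 (day 6) and 491 FPKM (day 7). The lowest day at 35 °C thus lay just above the highest day at 25 °C, a gap with 35 °C above that 1.61% of tested genes had. It depends on the scaling: with quantile normalization the lowest day at 35 °C was 362 FPKM and the highest at 25 °C 368 FPKM, so that the temperatures overlapped, and with FPKM as deposited they did not, at 373 and 354.7 FPKM. Among the tested genes the member ranked within the top 1.69% to 4.49% of levels on the days at 25 °C and within the top 0.811% to 1.73% at 35 °C.

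Prupe.4G186800 began at nearly the same level at both temperatures and was far lower from day 2 onwards. At 25 °C it started at 228 FPKM on day 1, was then 57.2 (day 2), 32.8 (day 3) and 35.0 FPKM (day 5), and ended at 40.2 (day 6) and 26.5 FPKM (day 7). At 35 °C it started at 218 FPKM, was 52.5 (day 2), 73.5 (day 3) and 81.4 FPKM (day 5), and ended at 27.2 (day 6) and 38.3 FPKM (day 7). Both day 1 values lay above all 10 later ones, as in 1689 of the 15420 tested genes, while the later days of the 2 temperatures overlapped. Its rank moved from within the top 3.58% of tested genes on day 1 to the top 25.0% on day 7 at 25 °C, and from the top 3.18% to the top 18.7% at 35 °C.

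**Figure D1:**
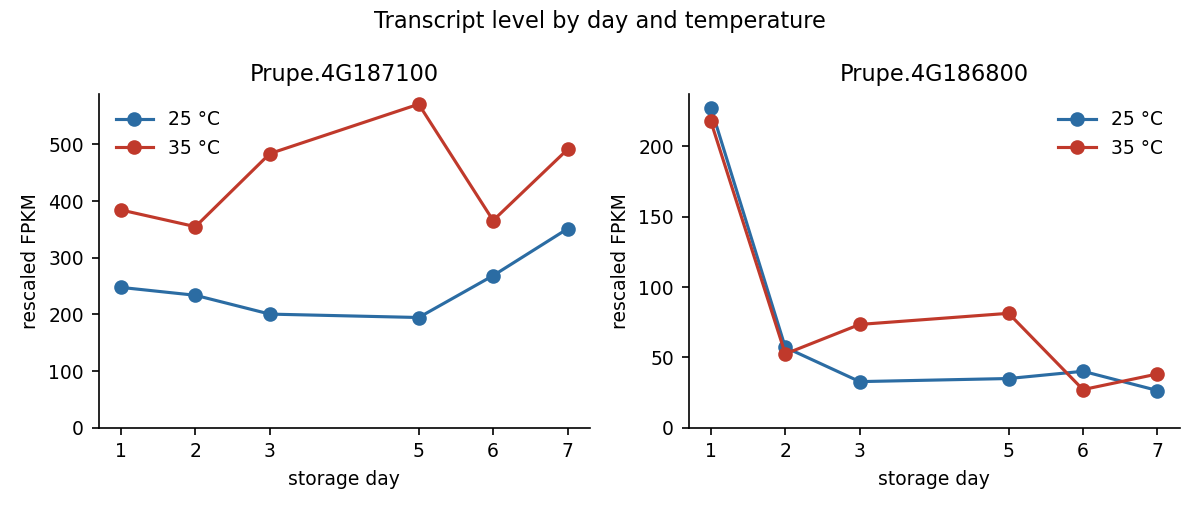
Rescaled FPKM (linear axes from 0) of Prupe.4G187100 (left) and Prupe.4G186800 (right) against storage day, with 1 point per deposited column at 25 °C (blue) and 35 °C (red) and no replicate error. The 35 °C points of Prupe.4G187100, 354.8 to 571, lie just above all its 25 °C points, 195 to 351.1, though not with quantile normalization, and Prupe.4G186800 lies at 228 and 218 on day 1 and at 57.2 and 52.5 on day 2.

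The first comparison asked whether the members differed between flesh stored at 35 and at 25 °C over the 6 days. Prupe.4G187100 was higher at 35 °C, with a mean of 442 ± 86.6 FPKM (SD over 6 days) against 249 ± 57.1 FPKM at 25 °C. The mean difference was 0.83 ± 0.20 on the log2 scale (SE, limma with day as a term, Benjamini-Hochberg adjusted p = 0.0357 over all tested genes). Here and below, limma draws the SE of a gene toward that of genes of similar level. The sign was the same on 6 of 6 days. Prupe.4G186800 did not pass this test. Its means were 81.7 ± 69.7 FPKM (SD over 6 days) at 35 °C and 69.9 ± 77.9 FPKM at 25 °C, a difference of 0.35 ± 0.25 (SE, limma adjusted p = 0.348), and it was higher at 35 °C on 3 of 6 days. With 1 day left out this difference was between 0.18 without day 5 and 0.53 without day 6, and was not called (limma adjusted p from 0.206 to 0.662).

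The call on Prupe.4G187100, 1 of the 2 members, stands beside 6.21% of tested genes called higher at 35 °C. A difference at least as high as that of Prupe.4G187100 was found in 3.89% of tested genes, and the median of the 958 genes called higher was 0.80. A higher value at 35 °C on all 6 days was found in 1546 of the 15420 tested genes. The call depended on which days entered. It was kept without day 1 (limma adjusted p = 0.0340) and lost without any other single day, with limma adjusted p from 0.0657 without day 7 to 0.114 without day 3. The difference itself stayed between 0.68 without day 5 and 0.91 without day 6, and 0 to 211 genes of the whole table were called without 1 of days 2, 3, 5, 6 or 7. The temperatures lie in separate tables and, after the random division, in separate fruit. A lasting difference between these fruit or tables and one due to temperature cannot be told apart.

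Day by day, the difference of Prupe.4G187100 was already present at the first sampling and largest in the middle of storage. It was 1.55-fold higher at 35 °C on day 1 and 1.52-fold on day 2. The ratio was 2.41 on day 3 and 2.93 on day 5, and then 1.36 on day 6 and 1.40 on day 7. These are ratios of single values with no error and no test. On day 1, when 0.733% of tested genes were at least 2-fold higher at 35 °C, 2.94% had a difference at least as high as this gene's. On day 2 the same comparison gave 21.4% of tested genes, on day 3 4.19% and on day 5 1.41%. The difference therefore stood out from the whole table on days 1, 3 and 5, and lay closer to the bulk of genes on days 2, 6 and 7.

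Prupe.4G186800 showed a difference of similar size in the middle of storage and smaller ones, of varying sign, on the other days. Its ratio of 35 to 25 °C was 0.957 on day 1 and 0.919 on day 2, 2.24 on day 3 and 2.32 on day 5, and 0.676 on day 6 and 1.44 on day 7. On days 3 and 5 both members were more than 2-fold higher at 35 °C, where 6.90% and 5.95% of tested genes were at least 2-fold higher. On no other day did either member reach 2-fold in either direction, except that with quantile normalization the log2 difference of Prupe.4G187100 on day 2 was 1.01 in place of 0.60. The small differences of Prupe.4G186800 on days 1 and 2 depended on the scaling: the log2 values of -0.06 and -0.12 became 0.14 and 0.08 with quantile normalization, and that of day 2 became 0.07 with FPKM as deposited.

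**Figure D2:**
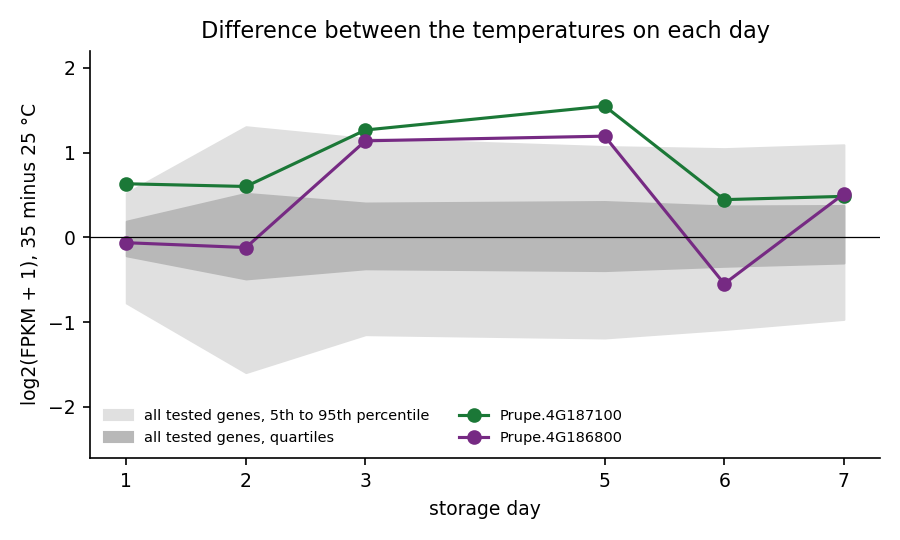
Difference of log2(FPKM + 1) between 35 and 25 °C on each storage day for Prupe.4G187100 (green) and Prupe.4G186800 (purple), 1 value per day, over the quartiles (dark grey) and the 5th to 95th percentiles (light grey) of all tested genes. On day 5 the members stand at 1.55 and 1.19, above the 95th percentile of 1.07, and on day 6 at 0.44 and -0.55, inside the light band.

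The second comparison asked how the members changed over storage. The test set days 5, 6 and 7 against days 1, 2 and 3 at each temperature, with the spread between days of a period as error. That spread is pooled over both temperatures, so the SE of a gene is the same at each. Prupe.4G187100 averaged 227 FPKM on the early and 271 FPKM on the late days at 25 °C, a log2 difference of 0.22 ± 0.27 (SE, limma adjusted p = 0.757). Early and late means were 408 and 476 FPKM at 35 °C, a difference of 0.21 ± 0.27 (limma adjusted p = 0.892). Neither passed the test, and the order of the days differed between temperatures, with the top value on day 7 at 25 °C and on day 5 at 35 °C.

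Prupe.4G186800 averaged 106 FPKM on the early and 33.9 FPKM on the late days at 25 °C, a log2 difference of -1.15 ± 0.69 (SE, limma adjusted p = 0.550). Early and late means were 115 and 48.9 FPKM at 35 °C, a difference of -1.09 ± 0.69 (limma adjusted p = 0.737). Neither value passed the test. Without day 1 the differences were -0.37 at 25 °C and -0.49 at 35 °C, and without day 3 that at 25 °C was -1.74, none of them called. The error of this test also holds the difference between days 1 and 2. In this fit 0.0% of tested genes were called at 25 °C, where 1614 had an unadjusted p under 0.05, and 0.00649% at 35 °C, where 1294 did.

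With day 1 set against days 2 to 7, Prupe.4G186800 was lower on the later days and called at both temperatures. This contrast was chosen after the values were seen and restates them, so its p-values are a description and no independent support. The log2 change was -2.58 ± 0.52 at 25 °C (SE, limma adjusted p = 0.0236) and -2.09 ± 0.52 at 35 °C (SE, limma adjusted p = 0.0239). The value of day 1 was 5.93 times the mean of days 2 to 7 at 25 °C and 3.99 times at 35 °C. In this contrast 2.65% of tested genes were called lower at 25 °C and 7.06% at 35 °C. Day 1 is a single column at each temperature, assumed to vary like the later days pooled over both temperatures. The p-values therefore do not measure spread between fruit on day 1. The call at 25 °C was lost without day 3 (limma adjusted p = 0.0629) or day 7 (0.0577), with changes of -2.54 and -2.47. Prupe.4G187100 was not called in the same contrast, with changes of -0.02 ± 0.36 at 25 °C (SE, limma adjusted p = 0.990) and 0.21 ± 0.36 at 35 °C (SE, limma adjusted p = 0.741).

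Prupe.4G186800 was already far lower on day 2 than on day 1 and stayed below day 1, though its level went on changing. From day 1 to day 2 it was 3.98-fold lower at 25 °C and 4.14-fold lower at 35 °C. At this step 6.17% of tested genes were at least 2-fold lower at 25 °C, 10.9% at 35 °C and 2.58% at both. A change at least as low as the member's was found in 1.06% of tested genes at 25 °C and in 3.04% at 35 °C. It remained more than 2-fold below its own day 1 level on all 5 later days at both temperatures, as did 1.85% of tested genes. The smallest gap to day 1 was 2.68-fold, on day 5 at 35 °C, and the widest 8.58-fold, on day 7 at 25 °C.

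**Figure D3:**
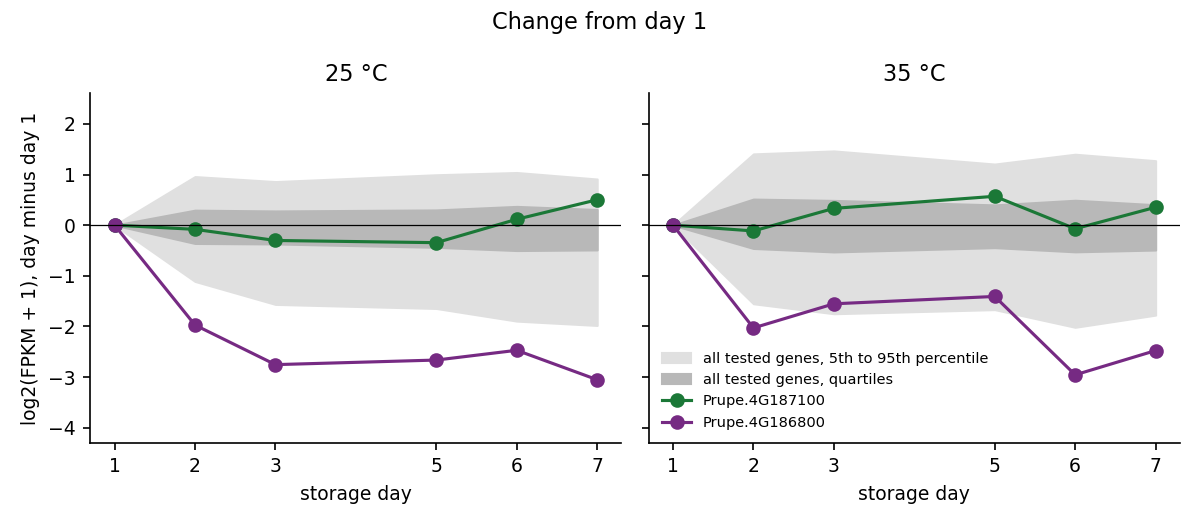
Change of log2(FPKM + 1) from day 1 at 25 °C (left) and 35 °C (right) for Prupe.4G187100 (green) and Prupe.4G186800 (purple), over the quartiles (dark grey) and 5th to 95th percentiles (light grey) of all tested genes. Prupe.4G186800 lies at -1.97 and -2.03 on day 2, below the light band at both temperatures, re-enters it at 35 °C on days 3 and 5 and ends at -3.05 and -2.48 on day 7, while Prupe.4G187100 stays between -0.35 and 0.57.

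Over its whole course Prupe.4G186800 was among the more variable genes and Prupe.4G187100 was not. The gap between the highest and the lowest day of Prupe.4G186800 was 3.05 on the log2 scale at 25 °C and 2.96 at 35 °C, sizes reached or passed by 3.08% and 4.01% of tested genes. For Prupe.4G187100 the gap was 0.85 at 25 °C and 0.68 at 35 °C, beside medians over all tested genes of 0.85 and 0.88. Its highest day was 1.80 times its lowest at 25 °C and 1.61 times at 35 °C.

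The next question was whether storage changed a member differently at 35 than at 25 °C, taken as the late minus early change at 35 °C less that at 25 °C. The value was -0.01 ± 0.38 for Prupe.4G187100 (SE, limma adjusted p = 1.00) and 0.07 ± 0.98 for Prupe.4G186800 (SE, limma adjusted p = 1.00), and neither passed. In this fit 0.0% of tested genes were called, with 471 at an unadjusted p under 0.05. It has no term for day, so its error also holds differences between days that both temperatures share. With day as a term the values were -0.01 ± 0.43 for Prupe.4G187100 and 0.07 ± 0.52 for Prupe.4G186800 (SE, limma), and neither was called. The error of Prupe.4G186800 leaves large differences undetectable in the first fit and remains wide in the second.

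Single steps did differ in direction. From day 2 to day 3 Prupe.4G186800 went from 57.2 to 32.8 FPKM at 25 °C, a ratio of 0.574, and from 52.5 to 73.5 FPKM at 35 °C, a ratio of 1.40. Prupe.4G187100 went the same ways over this step, with ratios of 0.858 and 1.36. With quantile normalization, however, it was higher on day 3 at 25 °C, by 0.15 on the log2 scale. From day 5 to day 6 the members were higher on the second day at 25 °C, by ratios of 1.38 for Prupe.4G187100 and 1.15 for Prupe.4G186800. At 35 °C both were lower on day 6, by ratios of 0.641 and 0.334. A change as low as that of Prupe.4G186800 over this step at 35 °C was found in 1.5% of tested genes, where 3.44% were at least 2-fold lower. None of these steps has a test. Opposite directions at the 2 temperatures were common, in 41.7% of tested genes from day 2 to day 3 and 49.3% from day 5 to day 6.

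The timing can also be set across the temperatures. On day 2 at 35 °C Prupe.4G187100 stood at 354.8 FPKM and Prupe.4G186800 at 52.5 FPKM, and on day 3 at 25 °C they stood at 201 and 32.8 FPKM.

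The third comparison set the members against each other within each column, where FPKM allows for transcript length. Prupe.4G187100 was the more abundant on 6 of 6 days at each temperature. The mean log2 difference was 2.26 ± 1.18 (SD over 6 days) at 25 °C and 2.73 ± 1.04 at 35 °C. Each gave p = 0.0312 in a two-sided exact permutation test that swaps the members within days, the smallest p that 6 days allow, and 0.0312 after adjustment over the 2 tests. The p-values treat days as independent units, which samples of a course are not.

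The members were closest in level on day 1 and several-fold apart from day 2 onwards. On day 1 Prupe.4G187100 was 1.09 times as abundant as Prupe.4G186800 at 25 °C and 1.77 times at 35 °C. On day 2 the ratios were 4.09 and 6.76, and on day 7 they were 13.2 and 12.8. Prupe.4G186800 accordingly held 47.9% of the summed FPKM of the pair on day 1 at 25 °C, 19.7% on day 2 and 7.02% on day 7. At 35 °C it held 36.2% on day 1, 12.9% on day 2 and 7.23% on day 7. The sum of the pair was 475 FPKM on day 1 and lowest on day 5, at 230 FPKM, at 25 °C. At 35 °C it was 602 FPKM on day 1 and highest on day 5, at 652 FPKM. The sums were higher at 35 °C on 6 of 6 days, and were not tested.

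**Figure D4:**
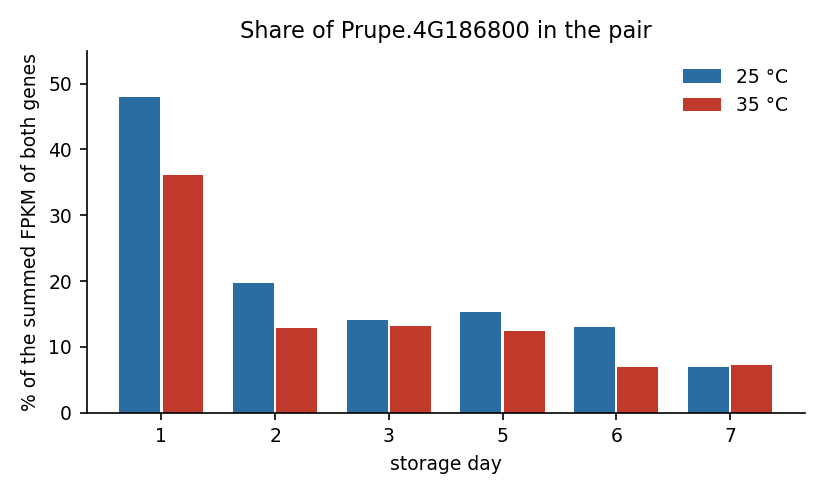
Share of Prupe.4G186800 in the summed FPKM of both members, in percent, on each storage day at 25 °C (blue) and 35 °C (red), with 1 value per bar and no replicate error. The bars stand at 47.9% and 36.2% on day 1 and at 7.02% and 7.23% on day 7.

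The courses of the members were not alike over the 12 columns, where Pearson's r of log2(FPKM + 1) was 0.143 and Spearman's rho 0.280. These describe 12 columns that share tables and days, and have no test. Within the 6 days at 25 °C r was -0.083, and within those at 35 °C it was 0.076. Over days 2 to 7 alone r was -0.348 at 25 °C and 0.630 at 35 °C, over 5 points each. From day 1 to day 7 at 35 °C the members moved in the same direction at each of the 5 steps. The first of these was -0.115 for Prupe.4G187100 and -2.03 for Prupe.4G186800 on the log2 scale. How many other genes share these directions was not counted. Between the temperatures, the course of Prupe.4G186800 over the 6 days had an r of 0.780 but a rho of 0.371, as day 1 lies far from the other days. For Prupe.4G187100 r was -0.229 and rho -0.257.

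Likeness over the 12 columns was then taken with 10202 other genes, those whose mean level was 5 FPKM or more. By r, Prupe.4G186800 ranked 3823 among them for Prupe.4G187100, where the median r was -0.049. Prupe.4G187100 ranked 4019 for Prupe.4G186800, where the median r was 0.018. An r of at least 0.9 was found for 11 genes with Prupe.4G187100 and for 27 with Prupe.4G186800. The highest of so many values was all but bound to exceed the r between the members. Closest to Prupe.4G187100 were Prupe.1G170500, with an r of 0.934 and means of 9.77 FPKM (25 °C) and 13.6 FPKM (35 °C), and Prupe.1G019000, with an r of 0.932 and means of 9.43 and 16.5 FPKM. Least alike were Prupe.2G158100 at an r of -0.943 and Prupe.3G284400 at -0.934, the last of which averaged 574 FPKM (25 °C) and 254 FPKM (35 °C). All 4 were picked for their likeness, so their difference between temperatures adds nothing to that of the member.

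Closest to Prupe.4G186800 was Prupe.1G493100, with an r of 0.981. It stood at 80.6 FPKM on day 1 at 25 °C and at 97.2 FPKM at 35 °C, and at 18.5 and 23.0 FPKM on day 2. At 35 °C it also had the higher values of days 3 and 5, at 39.4 and 38.1 FPKM, and the lower one of day 6, at 13.3 FPKM. Next came Prupe.1G494400, with an r of 0.952, at 78.6 FPKM on day 1 and 13.1 FPKM on day 2 at 25 °C and at 56.8 and 12.4 FPKM at 35 °C. The least alike were Prupe.6G193900, at an r of -0.953, and Prupe.1G347900, at -0.952, both of them lowest on day 1 at each temperature. These identifiers were picked by r over the same columns, so the days on which they go with or against the member follow from the pick. The tables give none of them a name or product.

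The identifiers next to the members in number were examined as the setting of the locus. They are the 2 identifiers between the members and the 10 on each side, 22 in all. The tables hold no genome positions, so nearness in number stands in for nearness on the chromosome. Both identifiers between the members, Prupe.4G186900 and Prupe.4G187000, stayed under 1 FPKM in all 12 columns, and the second was listed at 0 in each. Of the 22, 10 were tested and the other 12 never passed 0.948 FPKM. No neighbour reached the levels of Prupe.4G187100, the highest neighbouring value being 162 FPKM.

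Between the temperatures, 1 of the 10 tested neighbours was called higher and 1 lower at 35 °C, where 6.21% and 5.78% of all tested genes were, and their median difference was -0.09 beside 0.02 over all tested genes. Prupe.4G187300 had a mean of 28.7 FPKM (25 °C) and of 80.7 FPKM (35 °C), a log2 difference of 1.39 ± 0.22 (SE, limma adjusted p = 0.0217), and was higher on 6 of 6 days. Its values on day 1 were close, at 24.8 and 29.1 FPKM, unlike those of Prupe.4G187100. Prupe.4G188000, which sums 2 rows, had means of 30.2 FPKM (25 °C) and 14.4 FPKM (35 °C), a difference of -1.04 ± 0.25 (SE, limma adjusted p = 0.0359), and was lower on 6 of 6 days. Neither call was there without day 3 or day 5, when limma called 0 genes of the whole table, with 3809 and 4372 at an unadjusted p under 0.05.

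From day 1 to day 7, Prupe.4G187700 differed in the opposite direction to Prupe.4G186800. It stood at 20.1 FPKM on day 1 and 153 FPKM on day 7 at 25 °C, and at 10.8 and 72.9 FPKM at 35 °C, with its highest value there, 132 FPKM, on day 3. It was the only tested neighbour at least 2-fold higher on day 7 than on day 1 at both temperatures, as were 1.88% of tested genes. Prupe.4G185900 and Prupe.4G186300 were at least 2-fold lower on day 7 at both, as were 7.65% of tested genes. Prupe.4G185900 went from 9.70 to 2.47 FPKM at 25 °C and from 10.7 to 3.84 FPKM at 35 °C. Prupe.4G186300 was scarce, at 2.30 FPKM on day 1 at 25 °C and 4.12 FPKM at 35 °C, and under 1 FPKM on all later days. It passed the filter only through day 1, so its lower day 7 is tied to the filter and is no finding. These changes compare single values and have no test.

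**Figure D5:**
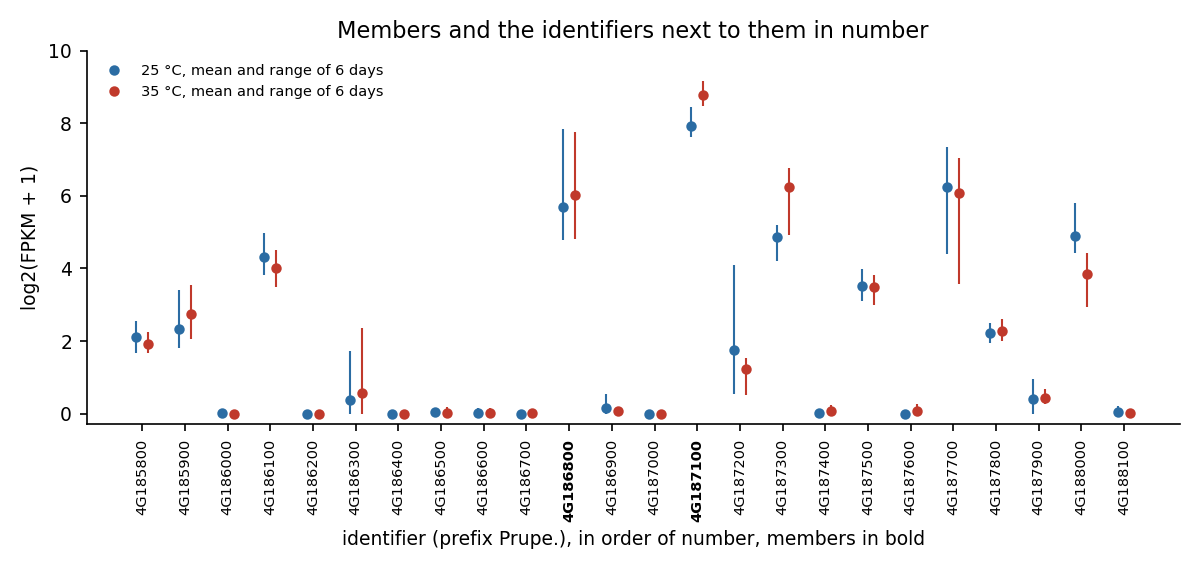
Levels of the members (bold) and of the 22 identifiers next to them in number, as log2(FPKM + 1): points are means and vertical lines the range over 6 days at 25 °C (blue) and 35 °C (red). The members lie among neighbours of which 12 stay near 0, and Prupe.4G187100 is the highest of all at both temperatures.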

How the data were processed

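Total RNA of peach flesh was depleted of ribosomal RNA and sequenced as directional libraries on an Illumina HiSeq instrument, per the labels' protocols. The authors deposited FPKM in 2 tables, 1 per temperature, with 6 columns each, per the file headers. Column names have no replicate number. Not given in the sources used here are the way 2 libraries became 1 value, the build, the gene models and whether columns were scaled. Cufflinks 2.1.1, TopHat2 2.0.10, Bowtie2 2.1.0, FastQC 0.10.1 and SAMtools 0.1.18 stand in the submitters' processing notes without roles. Depth is unknown, so no counting interval is given.

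FPKM of rows with the same identifier were summed (29300 rows, 26873 identifiers), and the 12 columns were divided by median-of-ratios factors over 12194 identifiers, from 0.922 to 1.06. Fits used limma 3.58.1 in R 4.3.3 (mean trend) on log2(FPKM + 1), a scale that understates the fold of low genes. P-values were adjusted by Benjamini-Hochberg over 15420 genes and called under 0.05. Days are the units of these p-values, which say nothing of the spread between fruit. A run on simulated data with known changes and independent columns checked only the estimated changes. It cannot speak to p-values over days that depend on each other.

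Tests planned for replicate libraries were replaced by tests over days, because each group has 1 value. Members, lists and tests were chosen with earlier results of these data known. Named besides the members were the 2 most and 2 least correlated genes for each, and tested neighbours called between temperatures or at least 2-fold changed from day 1 to day 7 the same way at both. Lists of ripening genes and tissue markers rest on product names and matched 0 identifiers. Alternatives were another pseudocount, filter or scaling, rows kept apart, each day left out, and other groupings of days.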

Additional observations from a re-analysis of the deposited data

Results flagged for a closer look

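Of 10 steps between sampled days, 5 for each member, 6 went one way at 25 °C and the other way at 35 °C. Each side of a step is a single value, so these differences were not tested, and at any step 34.5% to 51.3% of tested genes also moved in opposite ways.

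From day 2 to day 3 the change at 35 °C exceeded that at 25 °C by 0.67 on the log2 scale for Prupe.4G187100 and by 1.26 for Prupe.4G186800. From day 3 to day 5 the gap was 0.28 for Prupe.4G187100. From day 5 to day 6 the gap turned, at -1.10 for Prupe.4G187100 and -1.74 for Prupe.4G186800, both members being lower on day 6 at 35 °C and higher at 25 °C. From day 6 to day 7 it was 1.06 for Prupe.4G186800, which was lower on day 7 at 25 °C and higher at 35 °C. With quantile normalization Prupe.4G187100 was higher, not lower, on day 3 than on day 2 at 25 °C, by 0.15, so its first opposite step depends on the scaling. The step of Prupe.4G186800 from day 3 to day 5 at 25 °C, 0.09, became -0.01 with FPKM as deposited, opposite to its 0.15 at 35 °C.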

How the results depend on the processing

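No paired analysis was possible because each group is 1 column without a replicate number, so no replicate could be left out either; pairing was by day, in the temperature difference and between the members. The temperature difference of Prupe.4G187100 kept its sign in 13 of 13 alternatives, from 0.68 to 1.06, and its call in 7. It lost the call with no filter on low values (0.83, limma adjusted p = 0.0595) and without day 2 (0.87), day 3 (0.74), day 5 (0.68), day 6 (0.91) or day 7 (0.90), with adjusted p over all alternatives from 0.0283 to 0.114. The 1849 genes called became 397 with no filter, 1216 with a mean of at least 5 FPKM, 1214 with 4 groups of temperature and period, and 3006, 211, 0, 0, 1 and 129 without days 1, 2, 3, 5, 6 and 7. With FPKM as deposited, 1105 of 1806 calls were higher, against 958 of 1849. Over storage, calls ranged from 0 to 286 at 25 °C and from 0 to 72 at 35 °C under all alternatives that kept the periods or fitted a slope on day, and none held a member. Day 1 against days 2 to 7, added after seeing the data, called 538 and 1988 genes (173 to 1387 and 1023 to 2775 without 1 later day), gave Prupe.4G186800 -2.58 and -2.09 and turned Prupe.4G187100 at 25 °C to -0.023. In that contrast Prupe.4G186800 was also called at 25 °C without day 2 (-2.74), day 5 (-2.56) or day 6 (-2.61), and at 35 °C without day 2 (-2.10), 3 (-2.22), 5 (-2.25), 6 (-1.87) or 7 (-1.99), while Prupe.4G187100 at 25 °C was -0.0081, -0.058 and -0.15 without day 2, 6 and 7. The difference of the storage changes, near 0, turned for Prupe.4G187100 without day 3 (0.21), day 6 (0.18) or day 7 (0.16) and with the day 1 contrast (0.24), and for Prupe.4G186800 with quantile normalization (-0.023) and without day 1 (-0.12), day 2 (-0.15) or day 5 (-0.34). Without a day, 5 days cannot give an exact p under 0.0625 between the members, so that was not run. With FPKM as deposited the median gene moved from 0.03 to 0.19 between the temperatures on day 2 and from -0.01 to 0.15 between days 2 and 3 at 25 °C. The causes were not tested.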
